A study of Mus musculus with 6 samples.

Results

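Expression of 9 genes of the aryl hydrocarbon receptor pathway was examined in mouse NIH/3T3 fibroblasts with an acetylation-deficient RNA polymerase II. The genes were the receptor (Ahr), its partner (Arnt), its repressor (Ahrr) and 6 further genes that the receptor induces, namely Cyp1b1, Cyp1a1, Cyp1a2, Tiparp, Nqo1 and Aldh3a1. They were found by symbol among the 19938 genes to which the array annotation gives a single symbol, and each of the 9 had 1 probe set, which is the group of probes that reads a transcript. Cyp1b1 and Tiparp were selected on their measured log2 differences between the groups, so their values are given as a description with no test. The other 7 were picked for their known roles, with the results of many other genes in view.

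The receptor is a transcription factor of the bHLH-PAS family that waits in the cytoplasm with HSP90 and other chaperones. Dioxins, polycyclic hydrocarbons and tryptophan metabolites bind it, and the loaded receptor enters the nucleus, pairs with ARNT and binds DNA at the core motif GCGTG. Its targets include enzymes that oxidize foreign compounds, enzymes that clear the products, and the repressors Ahrr and Tiparp, which close a feedback loop. Among the oxidizing enzymes, mouse fibroblasts are known for Cyp1b1, whereas Cyp1a2 is mostly made in liver.

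The tested cells stably expressed HA-tagged mouse RPB1, the largest polymerase subunit, with arginines in place of the lysines at the seventh position of the heptad repeats (8KR). The reference cells stably expressed HA-tagged wild type RPB1, and both groups of cells were kept in α-amanitin. Each group had 3 samples, labelled as biological replicates, and 1 Affymetrix Mouse Gene 1.0 ST array per sample. No source used here says whether the replicates of a group came from separately derived cell populations, so the p-values below measure the spread between these samples, which may be technical.

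Values are log2 intensities as the authors normalized them, so a difference of 1 is a doubling in intensity. Array medians were 4.53 to 4.54 in 8KR and 4.49 to 4.52 in wild type, and the number of arrays limits the precision of every difference. Polr2a, which encodes RPB1, had a mean of 12.13 in 8KR and 12.10 in wild type, and its probe set does not separate the construct from the gene of the cell. Fibroblast genes were present. Their mean over 10 markers was 9.77 to 9.79 on the 8KR arrays and 9.97 to 10.07 on the wild type arrays. Whereas 51.8% of all tested genes were higher in 8KR, 8 of the 10 markers were lower, called or not. Of these, Pdgfra and Col3a1 fell (log2 difference -0.75 and -0.52, adjusted p = 0.00785 and 0.0364 from limma), which is 20.0% of the list called, against 5.39% of all tested genes. The call of Col3a1 was lost without any 1 of the 6 arrays (adjusted p of 0.0731 to 0.112 from limma). The part of this marker shift in the results below was not tested. Of 22 matched markers of epithelium, liver, leukocytes and endothelium, 16 passed the filter described next and none of these was called, while 2 had an unadjusted p under 0.05 (limma), against 21.8% of all tested genes. Alb, Ptprc, Adgre1 and Kdr lay under 3.0 in both groups, whereas others were brighter, such as the epithelial gene Krt8 (5.80 in 8KR and 5.91 in wild type), the liver gene Apoa1 (5.28 and 5.35) and the macrophage gene Cd68 (5.05 and 5.13). Probe sets with a group mean above 3.0, the background limit of the study's methods, were fitted with limma, with positive differences where 8KR was higher, and all 28543 of them entered the adjustment of the p-values. A gene is called at an adjusted p under 0.05. Levels of different genes are not compared, because each probe set has its own response.

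The receptor's core motif was looked for close to the start sites of these genes. The known receptor sites of Cyp1a1 and Cyp1b1 lie in enhancers further upstream, outside the windows searched here. RefSeq windows of 300 bases (GRCm38.p6), from 250 bases before to 50 bases after the start, were found for 7 of the 9 genes, all but Ahr and Aldh3a1. The letters GCGTG were searched on both strands, which means as GCGTG or as CACGC. They occurred in 5 of the 7, namely Cyp1b1, Tiparp, Cyp1a1, Ahrr and Arnt, and in 32.4% of all 32851 windows of this length. The windows of Cyp1b1 (chr17:79715012-79715311, minus strand) and Tiparp (chr3:65528197-65528496, plus strand) are shown because these genes lay on opposite sides of wild type in 8KR cells, and capitals mark the matches.
Cyp1b1: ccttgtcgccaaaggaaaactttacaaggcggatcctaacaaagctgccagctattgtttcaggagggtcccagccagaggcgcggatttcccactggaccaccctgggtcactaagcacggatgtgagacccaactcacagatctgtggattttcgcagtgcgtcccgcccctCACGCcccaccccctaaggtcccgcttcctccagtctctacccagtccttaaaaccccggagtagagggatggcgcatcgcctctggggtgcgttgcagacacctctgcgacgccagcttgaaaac
Tiparp: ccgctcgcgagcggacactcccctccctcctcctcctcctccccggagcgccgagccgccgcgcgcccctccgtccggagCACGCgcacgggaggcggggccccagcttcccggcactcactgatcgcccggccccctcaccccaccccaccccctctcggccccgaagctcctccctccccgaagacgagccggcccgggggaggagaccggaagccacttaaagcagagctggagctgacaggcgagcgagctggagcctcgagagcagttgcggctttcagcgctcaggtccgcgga
Each held 1 match, on the strand opposite to the gene, with its first base at position -76 from the start of Cyp1b1 and at position -170 from the start of Tiparp. The Tiparp window was 73.7% G and C with 34 CG pairs, against 58.3% and 16 CG pairs in that of Cyp1b1. The surroundings of the matches of Cyp1a1 (chr9:57697549-57697573, plus strand) and Ahrr (chr13:74292344-74292448, minus strand) are shown for comparison, as genes that carry the motif and were faint on these arrays.
Cyp1a1: agataaggagGCGTGgccaacagac
Ahrr: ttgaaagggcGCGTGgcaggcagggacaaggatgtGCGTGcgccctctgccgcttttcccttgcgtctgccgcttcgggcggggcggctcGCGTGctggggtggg
Ahrr had 3 matches, at positions -107, -82 and -27, and windows with 3 or more made up 3.91% of all windows. Cyp1a1 had its match at position -54 and Arnt at position -29. The windows of Nqo1 and Cyp1a2 did not hold these letters. A match is a description of the sequence and not a measured binding site.

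Of the 3 CYP1 enzymes, Cyp1b1 differed widely between the groups, whereas Cyp1a1 and Cyp1a2 were near background in both. CYP1B1 is a cytochrome P450 that hydroxylates polycyclic hydrocarbons and estradiol. Its probe set (10453057) read 9.01, 9.25 and 9.11 on the 8KR arrays, against 6.81, 6.77 and 6.71 on the wild type arrays. The lowest 8KR array thus lay far above the highest wild type array, and the means were 9.12 ± 0.12 in 8KR and 6.77 ± 0.05 in wild type (SD, n = 3 each). The log2 difference was 2.35 (standard error 0.09), or 5.11-fold higher in 8KR, and leaving out any 1 array gave 2.29 to 2.41. In bulk RNA, a change in the number of expressing cells and a change in RNA per cell cannot be told apart.

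CYP1A1 is the enzyme most often used to read receptor activity. Its probe set (10585749) read 3.57, 3.13 and 3.53 in 8KR, against 3.26, 3.27 and 3.59 in wild type. The groups overlapped, and the difference was 0.04 with a 95% confidence interval of -0.35 to 0.42 (adjusted p = 0.929 from limma). Cyp1a2, the liver enzyme (10593981), read 2.68, 2.80 and 3.13 in 8KR, against 2.82, 2.73 and 2.92 in wild type. Both of its means, 2.87 in 8KR and 2.82 in wild type, lay under the filter, so it was not tested. The intensities of both genes were so close to the limit of 3.0 that a small change in RNA could not be seen.

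Nqo1 and Aldh3a1, which encode enzymes that act on the products of oxidation, fell in 8KR cells. NQO1 reduces quinones, and its gene is a classic target of both the receptor and NRF2. Its probe set (10581538) read 5.85, 6.20 and 5.98 in 8KR, against 7.01, 7.25 and 7.02 in wild type, and the groups did not overlap. The means were 6.01 ± 0.18 in 8KR and 7.09 ± 0.13 in wild type (SD, n = 3 each). The difference was -1.08 (standard error 0.12, 95% confidence interval -1.38 to -0.78, adjusted p = 0.0111 from limma), which is 2.11-fold lower in 8KR.

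ALDH3A1 is a dehydrogenase that oxidizes aldehydes to acids. Its probe set (10376765) read 3.75, 3.56 and 3.61 in 8KR, against 5.24, 4.72 and 5.21 in wild type. The 8KR arrays lay close together and little above the filter, and all were below the lowest wild type array. The means were 3.64 ± 0.10 in 8KR and 5.06 ± 0.29 in wild type (SD, n = 3 each). The difference was -1.42 (standard error 0.16, 95% confidence interval -1.80 to -1.03, adjusted p = 0.0105 from limma), or 2.67-fold lower in 8KR. With 8KR values so close to background, the size of this difference is not firm. Both calls sat near the threshold when fewer arrays were used. Without 8KR replicate 3, Nqo1 had an adjusted p of 0.0534, and Aldh3a1 had 0.0522 without 8KR replicate 2 and 0.0523 without 8KR replicate 3 (limma), with differences of -1.06, -1.38 and -1.40. In a fit that blocked on the replicate number, the adjusted p was 0.0516 for Nqo1 and 0.0558 for Aldh3a1 (limma). Over all alternatives the adjusted p ran from 0.00149 to 0.0534 for Nqo1 and from 0.00124 to 0.0558 for Aldh3a1 (limma).

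The repressors of the receptor were Tiparp and Ahrr. TIPARP is an ADP-ribosyltransferase that modifies the receptor and dampens it. Its probe set (10492428) read 6.49, 6.42 and 6.21 in 8KR, against 7.43, 7.03 and 7.21 in wild type. The highest 8KR array lay below the lowest wild type array, with means of 6.37 ± 0.15 in 8KR and 7.22 ± 0.20 in wild type (SD, n = 3 each). The log2 difference was -0.85 (standard error 0.13), which is 1.80-fold lower in 8KR, and ranged from -0.95 to -0.75 when any 1 array was left out. AHRR competes with the receptor for ARNT. Its probe set (10410604) read 2.70, 2.64 and 2.91 in 8KR, against 2.73, 2.97 and 2.94 in wild type. All 6 values lay under 3.0, so it was not tested.

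The receptor and its partner were present in both groups, and neither was called. Ahr (10400006) read 5.35, 5.08 and 5.81 in 8KR, against 6.09, 5.48 and 5.82 in wild type. Its groups overlapped, and it had the widest spread of the tested genes in this set, with SDs of 0.37 in 8KR and 0.31 in wild type. The difference was -0.38 with a 95% confidence interval of -0.95 to 0.19 (adjusted p = 0.442 from limma), so that a value nearly 1 log2 unit lower in 8KR lies within the interval. Arnt (10494238), which also serves as the partner of the hypoxia factors, read 7.39, 7.68 and 7.36 in 8KR, against 7.65, 7.48 and 7.50 in wild type. Its difference was -0.07 with a narrower interval, from -0.35 to 0.21 (adjusted p = 0.793 from limma).

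**Figure D1:**
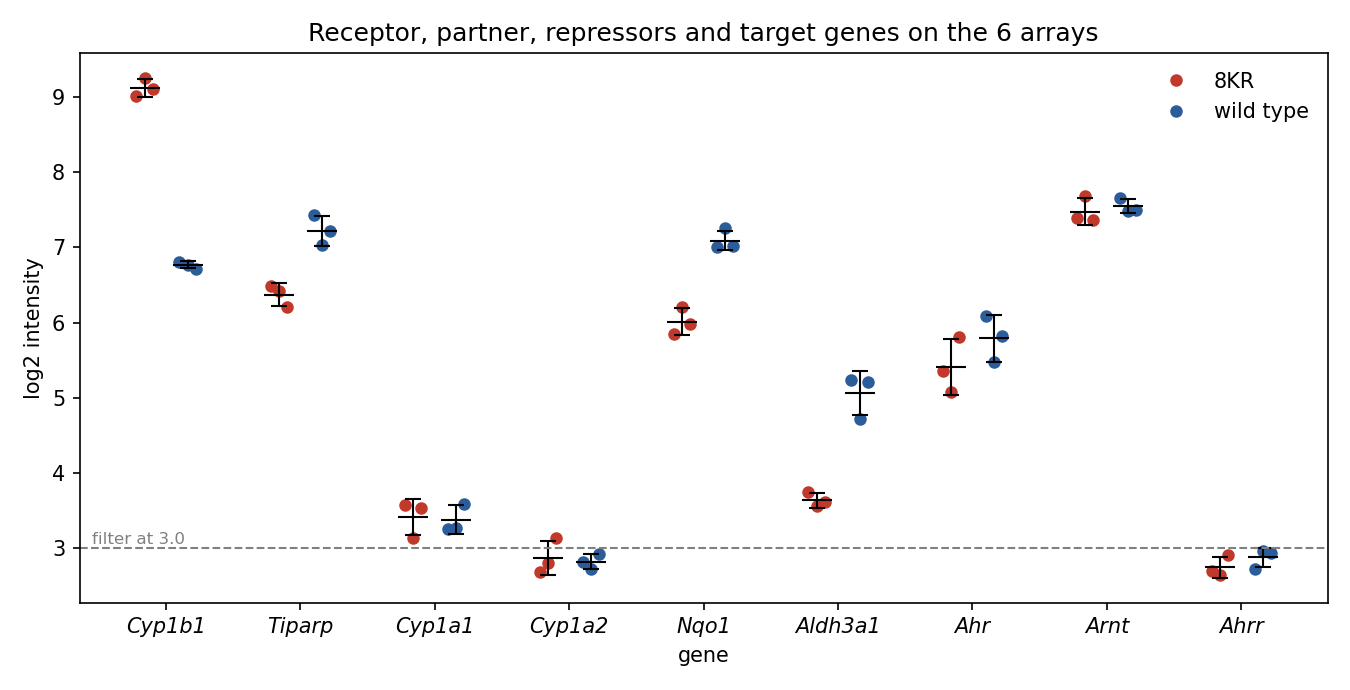
Log2 intensity (vertical axis) of the 9 genes on the 3 8KR arrays (red, left) and the 3 wild type arrays (blue, right), where points are arrays, short lines are means and error bars are SDs, and the dashed line is the filter at 3.0. Cyp1b1 lies higher on all 8KR arrays, Tiparp, Nqo1 and Aldh3a1 lie lower on all 8KR arrays, and the other 5 overlap.

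As described values, the receptor's targets in this set did not all lie on 1 side of wild type. Within the set, this rests on Cyp1b1 alone. Of the 7 genes of the set that the receptor induces, 5 could be tested or described above the filter. Cyp1b1 lay above wild type on every 8KR array, Tiparp, Nqo1 and Aldh3a1 lay below it on every 8KR array, and Cyp1a1 overlapped. Of the 5 tested genes other than Cyp1b1 and Tiparp, none rose and 2 fell, against 5.39% of all 17145 tested genes called, 2.33% higher and 3.06% lower (of all probe sets, 4.36%, 1.99% and 2.38%). Groups did not overlap in 2 of these 5 genes, Nqo1 and Aldh3a1, and in 29.7% of all tested genes. The sizes, given as a description, were 2.35 for Cyp1b1 and 0.85 to 1.42 for the 3 genes on the other side. Cyp1b1 and Tiparp were selected on these differences, and without Cyp1b1 no target in this set lay above wild type on every 8KR array. This does not hold for the other receptor-induced genes listed below. Of those, Ptgs2, Slc7a5 and Serpinb2 lay above wild type on every 8KR array, and Nfe2l2, Xdh and Cyp2s1 below it. The size for Aldh3a1 is not firm, since its 8KR values were little above the filter. The directions of Cyp1b1, Tiparp, Nqo1 and Aldh3a1 held under quantile normalization and with arrays centred on their medians. These scalings shifted the median over all genes by -0.0171 and -0.0287, too little to turn differences of this size.

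Genes around the receptor were read from lists filled by known role, and these were compared with all tested genes, whose median difference was 0.01. Of 10 tested chaperones and coregulators, 1 rose and 9 were not called, with a median of 0.04. This is 10.0% called, against 5.39% of all tested genes. The one that rose was Ncoa2, a coactivator of nuclear receptors that also binds bHLH-PAS proteins, at 7.16 ± 0.06 in 8KR and 6.68 ± 0.05 in wild type (SD, n = 3 each; difference 0.48, adjusted p = 0.0271 from limma). Without any 1 of the 6 arrays its adjusted p was 0.0723 to 0.0972 (limma). Ep300, the acetyltransferase gene whose product acetylates RPB1, had a difference of -0.29 (adjusted p = 0.126 from limma), and Med1, a Mediator subunit gene, had 0.21 (adjusted p = 0.216 from limma).

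Other genes known as induced by the receptor gave 1 call among 10 tested, with a median of -0.12. The share called was 10.0%, against 5.39% of all tested genes. An unadjusted p under 0.05 (limma) was found in 6 of the 10, against 21.8% of all tested genes. Of these, Ptgs2, Slc7a5 and Serpinb2 were higher in 8KR, and Nfe2l2, Xdh and Cyp2s1 were lower. Slc7a5, Serpinb2 and Xdh are named after their values were seen. Nfe2l2, which encodes NRF2, the factor that drives antioxidant genes, fell to 9.13 ± 0.08 in 8KR, against 9.54 ± 0.03 in wild type (SD, n = 3 each; difference -0.41, adjusted p = 0.0432 from limma). The call was lost without any 1 array, with adjusted p of 0.0966 to 0.130 (limma), and without the filter on low values (adjusted p = 0.0612 from limma; 0.00696 to 0.142 over all alternatives). Ptgs2, a prostaglandin synthase gene, had a difference of 0.30 (adjusted p = 0.0796 from limma), and passed with a stricter filter of 5.0 (0.0283) and with an intensity trend in the variance (0.00731). Cyp2s1, a P450 gene, had a difference of -0.50 (adjusted p = 0.132 from limma). In this list 4 genes were higher and 6 lower in 8KR, called or not.

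Enzymes that make receptor ligands from tryptophan were mostly faint. Of 10 matched genes, 6 passed the filter and none was called, while 1 had an unadjusted p under 0.05, against 21.8% of all tested genes. The 3 with the smallest adjusted p were Kyat1, a kynurenine aminotransferase gene, with a difference of 0.29 (adjusted p = 0.0989 from limma), Afmid, which forms kynurenine, with -0.15, and Kyat3, with 0.22. Among 11 other bHLH-PAS factors none was called either, and 3 had an unadjusted p under 0.05, near the share of 21.8% among all tested genes. These were Npas3, with a difference of -0.69, Npas4, with 0.37, and the circadian gene Clock, with -0.27.

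Electron carriers and heme enzymes that P450 enzymes depend on gave 1 call in 9, or 11.1%, against 5.39% of all tested genes. Cyb5r3, a reductase that passes electrons to cytochrome b5, read 9.78, 9.73 and 9.82 in 8KR, against 10.78, 10.52 and 10.61 in wild type. The groups were well apart, with a difference of -0.86 (standard error 0.09, adjusted p = 0.00908 from limma), and the call held without any 1 array (adjusted p of 0.0324 to 0.0459 from limma). It was lost with the replicate number as a block (adjusted p = 0.0712 from limma). Hmox1, which breaks down heme, and Cyb5b had differences of -0.12 and 0.13 and were not called.

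Some NRF2 pathway genes fell as Nqo1 did, but most of the list was not called. Of 20 tested genes 5 fell, none rose and 15 were not called, which is 25.0% called against 5.39% of all genes, with a median of -0.12. An unadjusted p under 0.05 (limma) was found in 9 of the 20, against 21.8% of all tested genes. No test of the list as a whole was made. Ephx1, an epoxide hydrolase gene whose product acts on the epoxides that P450 enzymes form, read 7.37, 7.22 and 7.34 in 8KR, against 8.60, 8.68 and 8.61 in wild type. All 8KR values lay more than 1 log2 unit below wild type, with a difference of -1.32 (standard error 0.08, adjusted p = 0.00180 from limma). Ephx1 was also called without any 1 array (adjusted p of 0.0112 to 0.0166 from limma) and in the fit that blocked on the replicate number (0.0474).

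The glutathione transferase gene Gstm1 fell by 0.64 (adjusted p = 0.0119 from limma), and the stress gene Osgin1 fell by 0.62 (adjusted p = 0.0148 from limma). Gstm1 belongs to a family of near-identical genes, so its probes may read relatives. Slc7a11, the cystine importer gene, fell by 0.59 (adjusted p = 0.0355 from limma) and is named after its value was seen. Nfe2l2 itself, described above, is the fifth. Calls of Gstm1 and Osgin1 were kept in only 1 of the 6 sets of 5 arrays, and that of Slc7a11 in none, with adjusted p up to 0.0559, 0.0630 and 0.115 (limma). Gstm1 was called without wild type replicate 3 and Osgin1 without 8KR replicate 2. Keap1, the inhibitor of NRF2, had -0.58 without being called (adjusted p = 0.0733 from limma; named after its value was seen). Of the 20 genes, called or not, 6 were higher and 14 lower in 8KR, with differences from -1.32 to 0.32. Among all tested genes, 51.8% were higher.

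**Figure D2:**
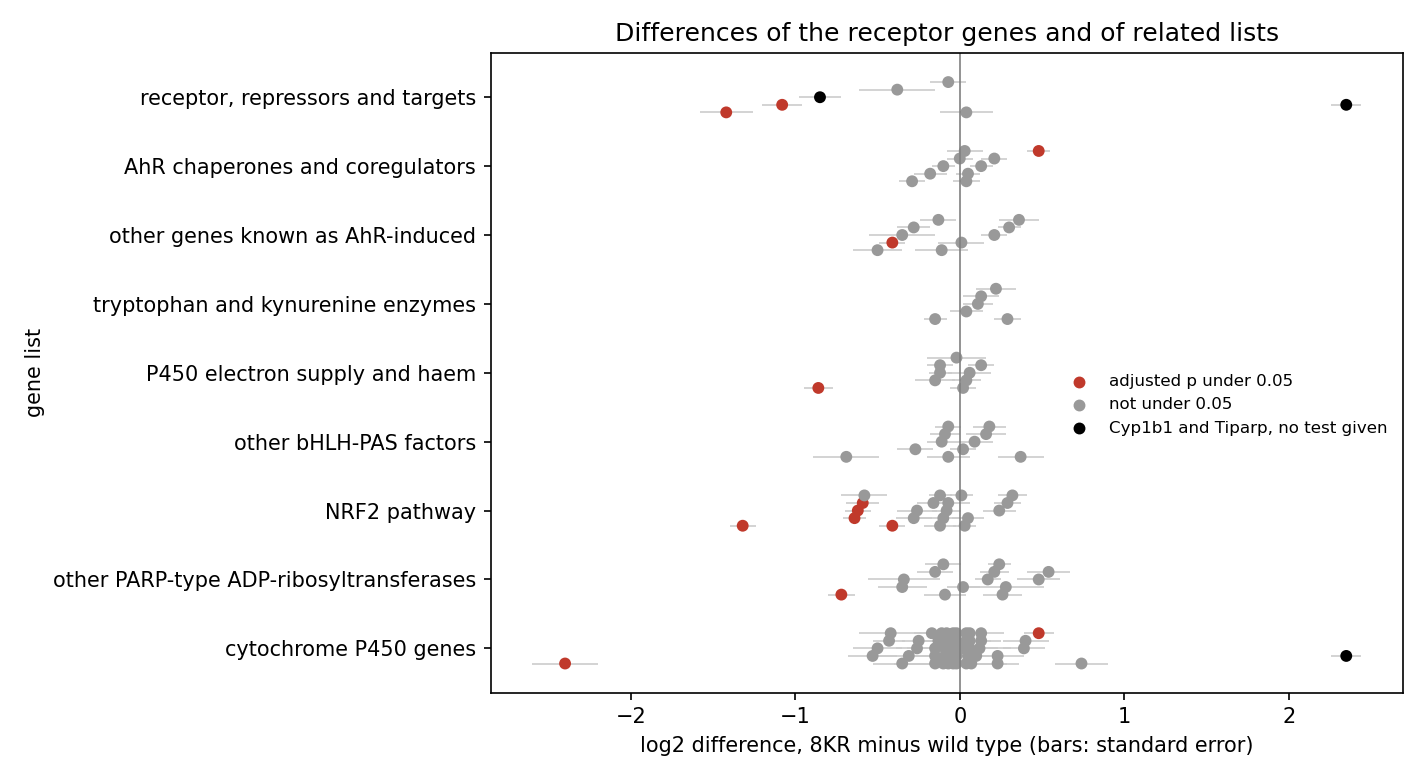
Log2 difference, 8KR minus wild type (horizontal axis), of each tested gene of the receptor set and of 7 related lists and the P450 family (rows), with standard errors as bars. Cyp1b1 and Tiparp are black, and Cyp1b1, at 2.35, stands alone on the right in its own set and in the P450 row. The red points, which mark an adjusted p under 0.05, lie mostly left of 0 and are most numerous in the NRF2 pathway list, with 5.

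The enzyme family of Tiparp, the PARP-type ADP-ribosyltransferases, gave 1 call among 14 other tested genes, or 7.14%, against 5.39% of all tested genes. Parp3, whose product acts in the repair of DNA breaks, read 6.59, 6.51 and 6.50 in 8KR, against 7.14, 7.33 and 7.30 in wild type. The groups were apart, with a difference of -0.72 (standard error 0.08, adjusted p = 0.0119 from limma). The call was lost without wild type replicate 2 or 3 and without 8KR replicate 2 or 3 (adjusted p of 0.0519 to 0.0579 from limma). Parp2, another repair gene, had a difference of 0.54 and Parp8 of 0.48, on the other side of wild type and not called (adjusted p = 0.0751 and 0.102 from limma). Both passed with a stricter filter of 5.0 (0.0339 and 0.0480) and over single-symbol probe sets (0.0300 and 0.0468).

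**Figure D3:**
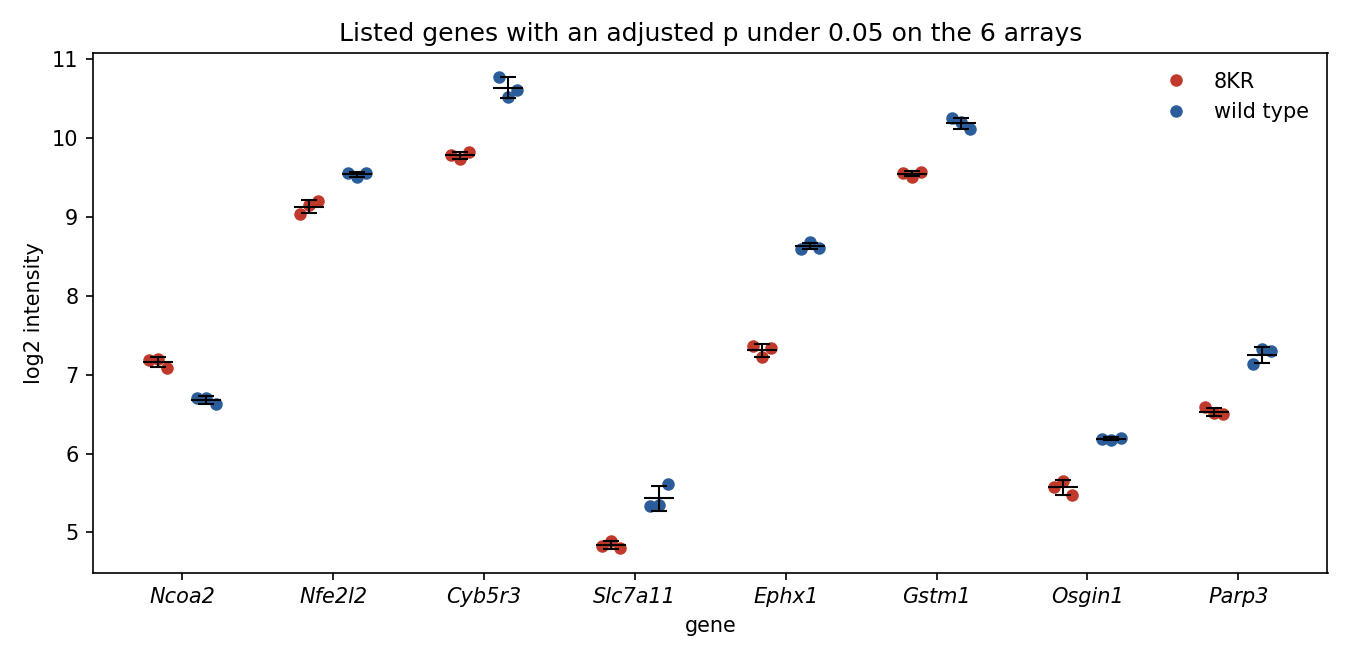
Log2 intensity (vertical axis) of the 8 listed genes with an adjusted p under 0.05, on the 3 8KR arrays (red, left) and the 3 wild type arrays (blue, right), where points are arrays, short lines are means and error bars are SDs. Ncoa2 is the only one higher in 8KR, and the groups do not overlap in any of the 8.

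Among cytochrome P450 genes, the widest difference was in Cyp2c55, slightly wider than that of Cyp1b1 and on the opposite side. Of 51 tested P450 genes besides Cyp1b1, 1 rose, 1 fell and 49 were not called, with a median of -0.04. This is 3.92% called, against 5.39% of all tested genes. Cyp2c55, a member of the CYP2C family of fatty acid and drug oxidases, read 3.81, 3.64 and 3.20 in 8KR, against 5.98, 6.17 and 5.70 in wild type. The 8KR values lay near the filter of 3.0, and values so close to background give the difference no firm size. The difference was -2.40 (standard error 0.20, adjusted p = 0.00438 from limma), and it was called under every alternative, with adjusted p up to 0.0329 (limma). Its relatives are similar in sequence, and Cyp2c66, named after its value was seen, had -0.43 without being called. Cyp4f16 rose by 0.48 (adjusted p = 0.0386 from limma), a call lost without any 1 array (adjusted p of 0.0662 to 0.124 from limma), and Cyp39a1, an oxysterol hydroxylase gene, had 0.74 (adjusted p = 0.0645 from limma). Cyp39a1 passed with a stricter filter of 5.0 (0.0286), with an intensity trend in the variance (0.0416) and over single-symbol probe sets (0.0212).

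Genes beside Cyp1b1 and Tiparp on the chromosome, in the order of the RefSeq gene table, were read as values with no test. They were read because an earlier account of these data placed Cyp1b1 in a stretch of neighbouring genes shifted together. The counts around Cyp1b1 are thus a description and not independent of that account. Of the 5 tested genes on either side of Cyp1b1, 7 were higher and 3 lower in 8KR, with differences from -0.12 to 0.55 and a median of 0.20. Among all tested genes, 51.8% were higher. Cdc42ep3, which encodes a binding partner of CDC42, averaged 8.12 ± 0.05 in 8KR and 7.62 ± 0.13 in wild type (SD, n = 3 each), a difference of 0.50 between groups that did not overlap. Groups also did not overlap in Prkd3 (0.55) and Dhx57 (0.47), and such separation was seen in 29.7% of all tested genes. Gemin6 had 0.52, whereas the direct neighbours Rmdn2 and Hnrnpll had 0.10 and 0.26. All 10 were far smaller than the difference of Cyp1b1.

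Around Tiparp, 4 of 10 neighbours were higher and 6 lower in 8KR, with a median of -0.02. The direct neighbours 4931440P22Rik and Lekr1 had differences of -0.10 and 0.20. Ptx3, which encodes a secreted pattern recognition protein, had the widest difference of the 10. It read 6.60, 6.42 and 6.40 in 8KR, against 7.82, 7.92 and 8.04 in wild type, and its groups were well apart. The difference was -1.46 (standard error 0.10), and leaving out any 1 array gave -1.52 to -1.40. Shox2, next to it, had -0.63.

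**Figure D4:**
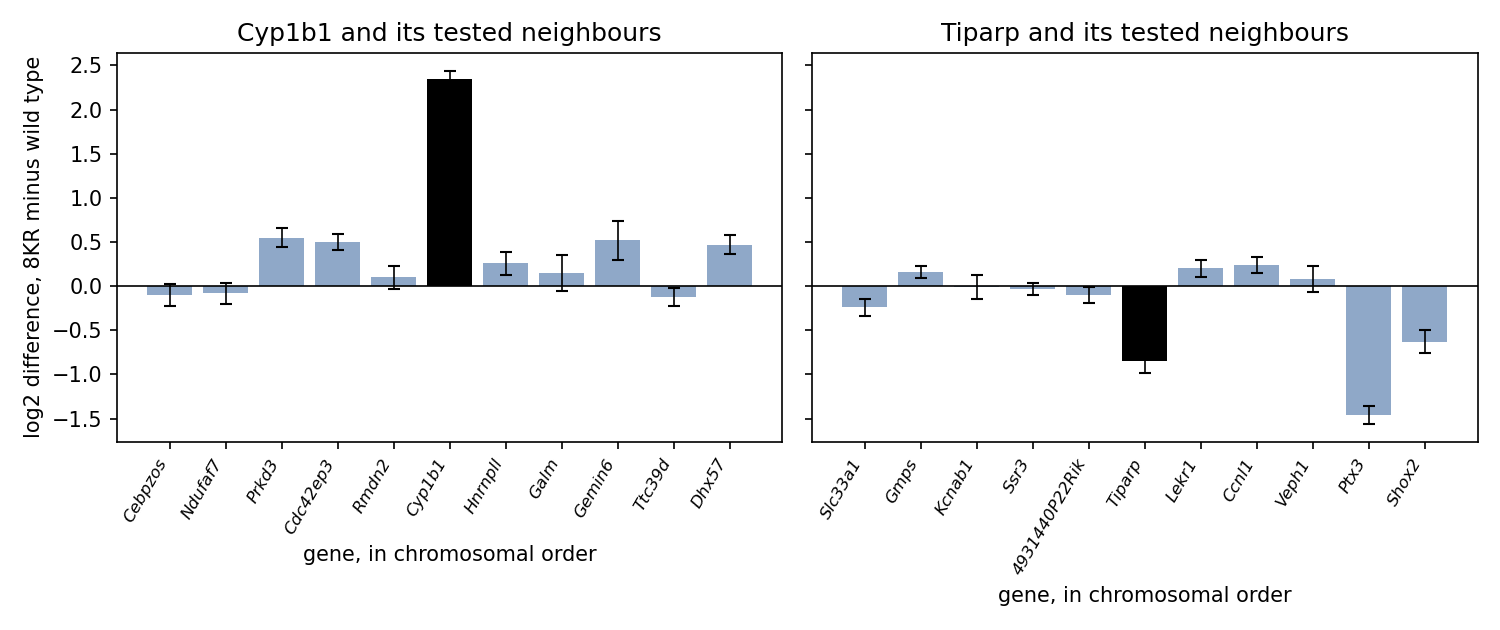
Log2 difference, 8KR minus wild type (vertical axis), of Cyp1b1 and Tiparp (black) and of the 5 tested genes on either side of each (blue), in chromosomal order, with standard errors as bars. The neighbours of Cyp1b1 stay between -0.12 and 0.55, and among those of Tiparp only Ptx3 (-1.46) and Shox2 (-0.63) lie beyond -0.24.

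Genes with the most similar values across the 6 arrays were found by Pearson's r, as a description with no test. Predicted genes, with symbols of Gm and a number or ending in Rik, were left out. Since the arrays form 2 groups, a high r mostly says that a gene differs between them in the same direction with small spread. For Cyp1b1 these were Gask1b (r = 0.9990, difference 0.47), Smchd1 (r = 0.9987, difference 0.77) and Mtch1 (r = 0.9986, difference 0.61). For Tiparp they were Vsnl1 (r = 0.9989, difference -0.43), Atp10a (r = 0.9985, difference -0.59) and Spcs1 (r = 0.9985, difference -0.26). None was a gene of the receptor set or of the lists.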

How the data were processed

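RNA of 6 samples was hybridized to Affymetrix Mouse Gene 1.0 ST arrays. The authors normalized the values and deposited them as log2 intensities, 1 per probe set and array. Of tools, the submitters' notes list only Affymetrix Power Tools (1.12.0), and no source used here gives the normalization method or the genome build. The table holds 35557 probe sets, of which 21789 have 1 symbol, 1621 several and 12147 none, and older symbols were replaced by those of the RefSeq table (GRCm38.p6) with the same Entrez identifier. Each gene was read from its brightest probe set, by the mean of all 6 arrays. Probe sets with a group mean above 3.0 were fitted without covariates by lmFit and eBayes of limma 3.58.1 (R 4.3.3), with Benjamini-Hochberg adjustment over all of them. The fit was tested on simulated data. The members, the lists and the reading of neighbours were chosen with earlier results of these data known. Named were the members, and up to 3 genes per list and among other P450 genes by adjusted p. Also named were 5 tested neighbours on either side of Cyp1b1 and Tiparp, and the 3 genes most similar to each, without predicted genes. Further called genes, Keap1, Cyp2c66, Slc7a5, Serpinb2 and Xdh were named after their values were seen. Of 96 distinct list genes 82 were matched and 78 tested. Nfe2l2 and Hmox1 are in more than 1 list. Alternatives covered the filter, normalization, variance model, array weights, a block on the replicate number, single-symbol probe sets, and each array left out. Figures were drawn with matplotlib 3.10.9.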

Additional observations from a re-analysis of the deposited data

How the results depend on the processing

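Calls depended on the number of arrays, the filter, the probe sets tested and the variance model. Over all probe sets, 1245 were called, and 2295 with a stricter filter of 5.0 and 2200 with an intensity trend in the variance. There were 77 calls with the replicate number as a block and 368 to 406 with 1 array left out. Without a filter 939 were called, and over single-symbol probe sets 1748. Of the list genes 8 were called, 13 with the stricter filter, 10 with the trend, 1 with the block and 2 to 3 with 1 array left out. Of the 5 tested members other than Cyp1b1 and Tiparp, 2 were called, 0 with the replicate number as a block and 0 to 2 with 1 array left out. Of the P450 genes besides Cyp1b1, 2 were called, against 1 without a filter, 1 with the block, 4 over single-symbol probe sets and 1 with any 1 array left out. Same-numbered arrays of the 2 groups did not deviate together (correlations of -0.011, 0.009 and 0.000), so the numbers were not taken to pair the samples. Ephx1 and Cyp2c55 were the list and P450 genes called with the block. No called member or list gene changed sign under either scaling, and both shifts of the median were far smaller than the called differences. Fewer arrays leave fewer degrees of freedom, and Cyp1a1, Cyp1a2 and Ahrr lay too near background for a small change to be seen.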
